A study of Rattus norvegicus with 2 samples.

Results

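The collecting duct is the last segment of the nephron, where the final water and sodium content of urine is set. In its principal cells vasopressin acts through the V2 receptor and cyclic AMP to bring the water channel aquaporin-2 to the apical membrane, and aldosterone raises sodium uptake through the epithelial sodium channel ENaC. Between them lie intercalated cells, which secrete acid or base with a proton pump (V-ATPase) and anion exchangers. 10 genes of these cells were followed in urine RNA, out of 16484 annotated genes (number-only NCBI gene IDs) and 113011 features in the table. They were picked by symbol. The 8 principal cell genes were Aqp2, Aqp3, Avpr2, Scnn1a, Scnn1b, Scnn1g, Hsd11b2 and Fxyd4, and the 2 intercalated cell genes were Atp6v1b1 and Foxi1. All 10 were found.

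Urine RNA was sequenced in 2 libraries from Sprague Dawley rats aged 8 weeks (postnatal day 56 in the labels). UUO, unilateral ureteral obstruction, is a model of kidney scarring in which the right ureter is tied off, and the library titled WT came from rats given sham surgery without ligation. Urine was drawn 2 weeks (14 days) after surgery through a catheter in the ureter, keeping newly formed urine. The number of rats behind each library is not given. With 1 library per group no difference has a replicate check and no test between groups was possible, so every value describes these 2 libraries.

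Values are FPKM, fragments counted per kilobase of a transcript and set relative to the library total. Changes are given as the difference of log2(FPKM + 1), UUO minus WT, which understates the change of low genes, and a gene is called higher or lower when that difference reached 1 (2-fold) and the gene passed a filter of FPKM 1 or more in WT or UUO urine. The table names its columns UrRf and Urc, which were read as UUO and WT urine because urine lists of the study head these numbers UUO and sham. From the steps in the FPKM of assembled features, 1 fragment per effective kilobase was worth 0.473 FPKM (WT) and 0.409 FPKM (UUO). Transcript lengths are not listed, so no counting interval was computed.

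At FPKM 1 or more, taken as detected, WT urine held 7 and UUO urine 9 of the 10 genes. The share detected among all annotated genes was 47.3% for WT and 56.3% for UUO. Of the 10 genes, 9 passed the filter. 4 of them (Fxyd4, Hsd11b2, Scnn1g and Avpr2) were called higher and 2 (Scnn1a and Atp6v1b1) lower in UUO urine, and 3 (Aqp2, Aqp3 and Scnn1b) were within 2-fold. Fxyd4 and Avpr2 were listed at 0 in WT urine, so they passed through UUO urine alone and could only be called higher. Among all 9853 annotated genes that passed, 25.7% were called higher and 36.5% lower. The median difference of those genes was -0.51, and it was -0.81 over the 7218 annotated genes detected in both libraries. Of the 7 collecting duct genes above 0 in both libraries, Hsd11b2 and Scnn1g were called higher and Scnn1a and Atp6v1b1 lower. Among the 7842 annotated genes above 0 in both, 631 were called higher and 3434 lower.

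The median of the annotated genes that passed moved with the scaling. It was 0.15 after rescaling to equal summed FPKM, 0.39 by the 75th percentile and 0.51 by the median ratio. Called genes then divided into 3622 higher and 2157 lower, 4057 and 1758, and 4338 and 1587, against 2534 and 3600 as deposited. Under each of the 3 rescalings 5 of the 10 genes were called higher and 1 lower, because Aqp3 passed the limit and Atp6v1b1 no longer did.

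**Figure D1:**
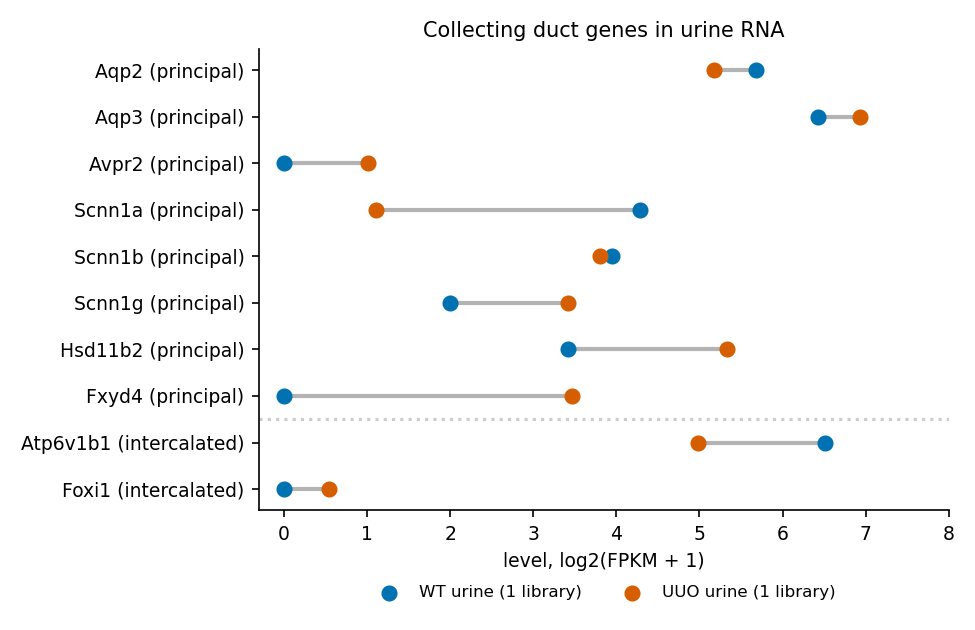
Level of each collecting duct gene as log2(FPKM + 1) in WT urine (blue) and UUO urine (orange), 1 library each, with principal cell genes above the dotted line and intercalated cell genes below it. Scnn1a runs from 4.28 in WT down to 1.11 in UUO urine, while Fxyd4, Avpr2 and Foxi1 start at 0 in WT urine.

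Both water channels were among the abundant genes of urine. Aqp3, the water and glycerol channel of the basolateral membrane, was the highest of the 10 genes in UUO urine (ID 65133, chromosome 5, 61954829 to 61960347 in the table, for which the submitters' processing notes name the rn5 build). Aqp3 stood at 85.1 FPKM (WT) and 121 FPKM (UUO), above 95.4% and 98.9% of annotated genes. The difference of 0.50 was within 2-fold as deposited and reached 1.12 to 1.43 under the rescalings. Urothelium, the lining of the ureter and bladder, also expresses Aqp3.

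Aqp2, the vasopressin-regulated apical water channel and the defining gene of principal cells, stood at 50.2 FPKM (WT) and 35.0 FPKM (UUO) (ID 25386, chromosome X, 115742295 to 115747350). Aqp2 was thus lower by 0.51 on the log2 scale as deposited, and higher by 0.10 to 0.41 under the rescalings. The deposited difference equals the median of the annotated genes that passed the filter and lies above the -0.81 of those detected in both libraries. Aqp2 stood above 91.4% of annotated genes in WT and 94.1% in UUO urine, at rank 1424 and 966. The ratio of Aqp3 to Aqp2 within a library does not depend on scaling, and it was 1.69 (WT) and 3.45 (UUO). Per the study's methods, urine was centrifuged before it was stored and again ahead of RNA isolation, and the fraction kept is not stated. In bulk RNA of this kind the number of cells of a type, RNA per cell, and RNA released from cells or degraded cannot be told apart.

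The table places Aqp2 on chromosome X, and its neighbours Aqp5 and Aqp6 follow it there, while the RefSeq tables of the GRCr8 assembly have all of them on chromosome 7. Avpr2 is listed on chromosome 1 and in RefSeq on chromosome X. In all 305 of 16323 genes (1.87%) were listed on another chromosome than in RefSeq, and these were 2 of the 10 genes. Symbols were matched by gene ID, so the names do not rest on position.

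Avpr2, the V2 vasopressin receptor that signals to Aqp2, had no signal listed for WT (FPKM 0) and 1.02 FPKM for UUO (ID 25108, chromosome 1, 152637477 to 152639106). That level stood for 2.49 fragments per effective kilobase, and the table marks Avpr2 as having too few reads to compare. Its place among the genes called higher therefore rests on a value at the detection limit, and with a pseudocount of 10 the difference was 0.14. Aqp2 had 106 fragments per effective kilobase in WT and 85.7 in UUO urine.

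Of the 12 aquaporin genes looked up, 6 passed the filter. Aqp1, the water channel of proximal tubule and thin limb, was level at 26.7 in WT and 25.2 in UUO urine. The intracellular Aqp11 was at 11.8 in WT and 0.267 in UUO urine, a difference of -3.34. Aqp4, the other basolateral water channel of principal cells, was at 2.30 and 0.464, a difference of -1.17, or -0.63 summed over its locus. Aqp9 was listed at 0 in WT and at 1.25 in UUO urine. Aqp3 and Aqp2 were the 2 highest of the family in both libraries, and Aqp5, Aqp6, Aqp8, Aqp12a and Mip were listed at 0 in both.

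ENaC is built from alpha, beta and gamma subunits, of which alpha is needed for channel function, and principal cells make all of them. Scnn1a, the alpha subunit, stood at 18.4 FPKM (WT) and 1.16 FPKM (UUO), 15.9-fold lower, a difference of -3.17 (ID 25122, chromosome 4, 224853706 to 224877155). It was above 78.4% of annotated genes in WT and 45.2% in UUO urine. Its value in UUO urine stood for 2.83 fragments per effective kilobase, against 38.9 in WT urine.

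Scnn1b, the beta subunit, was nearly level, at 14.4 FPKM (WT) and 13.0 FPKM (UUO) (ID 24767, chromosome 1, 198932511 to 198953453). Its difference was -0.15 as deposited and turned to between 0.44 and 0.74 under the rescalings. Scnn1g, the gamma subunit, was the other way from alpha, at 2.995 FPKM (WT) and 9.72 FPKM (UUO), 3.24-fold higher, a difference of 1.42 (ID 24768, chromosome 1, 198620973 to 198655017). With a pseudocount of 10 this difference was 0.60, inside the 2-fold limit.

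The 3 subunits summed to 35.8 FPKM (WT) and 23.8 FPKM (UUO). Alpha made up 51.3% of that sum in WT and 4.86% in UUO urine. Beta made up 40.3% and 54.4%, and gamma 8.36% and 40.8%. The ratio of gamma to alpha was 0.163 (WT) and 8.39 (UUO), a 51.5-fold shift that 1 scaling factor leaves as it is. Both ends of this shift rest on low values. Scnn1g in WT urine stood for 6.34 fragments per effective kilobase and Scnn1a in UUO urine for 2.83. All 3 subunits are also expressed in urothelium, and how much of each came from there was not tested.

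**Figure D2:**
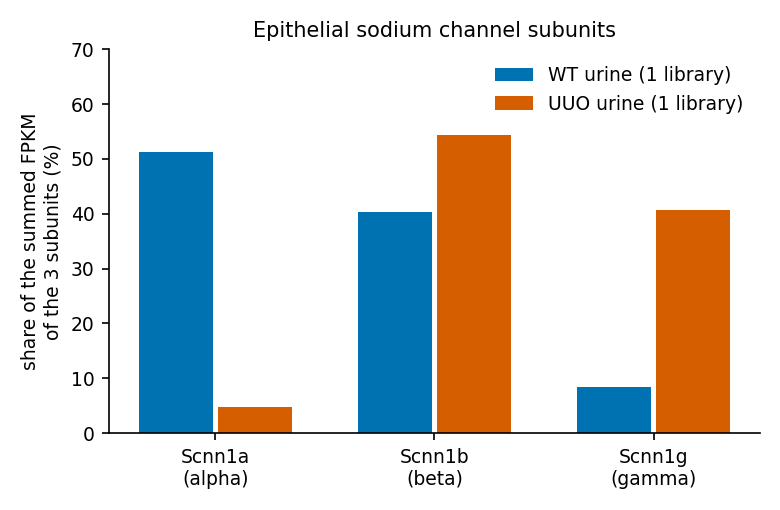
Share of the summed FPKM of Scnn1a, Scnn1b and Scnn1g held by each subunit (percent, bars from 0) in WT urine (blue) and UUO urine (orange), 1 library each. Alpha holds 51.3% in WT and 4.86% in UUO urine, while gamma goes from 8.36% to 40.8%.

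Hsd11b2 is the enzyme that turns corticosterone into an inactive steroid, so that aldosterone can act on the mineralocorticoid receptor. Hsd11b2 stood at 9.67 FPKM (WT) and 39.2 FPKM (UUO), 4.05-fold higher, a difference of 1.91 (ID 25117, chromosome 19, 48341839 to 48347084). It moved from above 69.1% to above 94.9% of annotated genes. The locus also holds the noncoding database entry NONRATT027423, at 62.6 (WT) and 29.4 (UUO), and the whole locus summed to 74.9 FPKM (WT) and 71.3 FPKM (UUO). The higher level in UUO urine thus held for the Hsd11b2 entry and not for the locus sum, whose difference was -0.071, and it stays in doubt. NONRATT027423 carries the authors' status LOWDATA. How reads were divided among the entries of this locus was not tested.

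The mineralocorticoid receptor gene itself, Nr3c2, was at 16.0 in WT and 2.57 in UUO urine, a difference of -2.25, or -1.25 when summed over its locus. The ratio of Hsd11b2 to Nr3c2 was 0.605 (WT) and 15.2 (UUO), and the doubt over the Hsd11b2 locus applies to it as well.

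Fxyd4, also called CHIF, is a small regulator of the sodium pump that is found in collecting duct and colon. Fxyd4 had no signal listed for WT (FPKM 0) and 10.1 FPKM for UUO (ID 64190, chromosome 4, 215913321 to 215916659), 24.7 fragments per effective kilobase. Of the members listed at 0 in WT urine, it was the one furthest from 0 in UUO urine. This pattern was common, since 4166 of all 16484 annotated genes were listed at 0 in WT urine only, and 182 at 0 in UUO urine only. Atp6v0b and Atp6ap2, proton pump genes used by most cells, were also listed at 0 in WT urine and at 48.95 and 14.4 in UUO urine. Whether an exact 0 stands for absence or for a failed estimate was not tested. All entries at the loci of Atp6v0b and Atp6ap2 summed to 6.99 and 12.6 in WT urine, whereas at the loci of Fxyd4, Avpr2 and Foxi1 that sum was 0. No fold is given for Fxyd4, Avpr2 or Foxi1.

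Of the intercalated cell genes, Atp6v1b1 encodes the B1 subunit of the proton pump, the form of intercalated cells. Atp6v1b1 stood at 90.1 FPKM in WT, the highest of the 10 genes there, and 30.7 FPKM in UUO urine, 2.93-fold lower, a difference of -1.52 (ID 312488, chromosome 4, 180005841 to 180024920). Under the rescalings the difference was -0.91 to -0.61, lower still but inside 2-fold. The assembled feature XLOC_026055 at the same locus was listed at 8387 in WT and 1688 in UUO urine, far above the gene, so the read assignment there is uncertain.

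Foxi1, the forkhead transcription factor that switches on intercalated cell genes, had no signal listed for WT (FPKM 0) and 0.452 FPKM for UUO (ID 287185, chromosome 10, 19039082 to 19043025). That is 1.11 fragments per effective kilobase, and the table marks it as having too few reads to compare. Foxi1 was the gene of the 10 that did not pass the filter, and no difference was detectable at this depth.

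Set against Aqp2, the intercalated cell gene Atp6v1b1 was lower in UUO urine. The ratio of Atp6v1b1 to Aqp2 was 1.79 (WT) and 0.876 (UUO), a 2.05-fold shift that rescaling leaves as it is. The B2 subunit gene Atp6v1b2, which most cells use, was at 113 (WT) and 67.1 (UUO), and the ratio of B1 to B2 was 0.799 and 0.457. The doubt over read assignment at the Atp6v1b1 locus applies to both of these Atp6v1b1 ratios. The median difference was 0.76 over the 8 principal cell genes and -0.49 over the 2 intercalated cell genes, and the latter turned to 0.14 with median-ratio scaling and 0.075 with 75th-percentile scaling. With the members above 0 in both libraries alone, a choice made after seeing the data, it was 0.18 over 6 principal cell genes and -1.52 for Atp6v1b1.

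Aqp2 and Atp6v1b1 were each well above the detection limit in both libraries, as were other members, among them Aqp3 and Scnn1b. The promoters of Aqp2 and Atp6v1b1 are shown, for a principal and an intercalated cell gene. They are the 250 bases before the RefSeq start on the sense strand (GRCr8, another build than that of the table), at chr7:132590036-132590285 for Aqp2 and chr4:117781194-117781443 for Atp6v1b1, both on the plus strand. Capitals in Aqp2 mark ACGTCA, the core of a cyclic AMP response element read on the other strand, and AGAACA, the core of a steroid receptor site. Capitals in Atp6v1b1 mark TGTTTAC, a forkhead site.
Aqp2: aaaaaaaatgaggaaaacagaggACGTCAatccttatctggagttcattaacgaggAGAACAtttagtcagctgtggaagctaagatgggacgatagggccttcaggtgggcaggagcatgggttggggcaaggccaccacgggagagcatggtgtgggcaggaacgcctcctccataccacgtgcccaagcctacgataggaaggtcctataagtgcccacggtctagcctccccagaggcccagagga
Atp6v1b1: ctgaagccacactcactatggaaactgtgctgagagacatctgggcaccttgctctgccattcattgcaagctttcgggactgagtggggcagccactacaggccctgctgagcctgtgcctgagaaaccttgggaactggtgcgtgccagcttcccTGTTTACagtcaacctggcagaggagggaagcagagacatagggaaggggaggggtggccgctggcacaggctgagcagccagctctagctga

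Searched on both strands, with no overlap between them in these promoters, TGACGT was present in 1 of the 8 member promoters in the RefSeq table (Aqp2, 227 bases before the start) and in 6.95% of all 33469 promoters of that length. TGTTTAC was present in 2 of 8 (Atp6v1b1, 93 bases before the start, and Avpr2) and in 3.21% of all. AGAACA was present in 2 of 8 (Aqp2 and Avpr2) and in 17.5% of all. These are matches of letters, and binding was not measured.

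A wider list of 17 principal cell genes was within 2-fold for the most part. 16 of them passed the filter, and 1 was called higher and 5 lower, beside 25.7% and 36.5% of all annotated genes that passed. Their median was -0.53, near the -0.51 of the annotated genes that passed. Over the 15 above 0 in both libraries it was -0.56, against -0.83 over the annotated genes of that kind. Sgk1, the aldosterone-induced kinase that keeps ENaC at the membrane, was at 34.5 in WT and 42.6 in UUO urine. Nedd4l, the ubiquitin ligase that removes ENaC, was at 8.11 and 9.79, and the channel-activating proteases Prss8 and St14 were at 9.54 and 16.7 and at 39.6 and 23.4. Tsc22d3 (GILZ), a steroid-induced gene that also raises ENaC activity, was at 49.4 in WT and 13.2 in UUO urine, a difference of -1.83.

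Atp1b1, a beta subunit of the sodium pump, was at 49.98 in WT and 35.1 in UUO urine, a difference of -0.50. That is near the median of the annotated genes that passed and above the -0.81 of those detected in both libraries. On the water side, Gnas, the stimulatory G protein that the V2 receptor uses, was at 298 and 131, a difference of -1.18, while the cyclase gene Adcy6 was at 8.46 and 6.95, a difference of -0.25 that turned to 0.87 when summed over its locus. Mal, a membrane raft protein, was at 139 and 184. Gnas, Atp1b1 and Mal are made by many other cells as well.

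Among transcription factors of the segment, Tfcp2l1 was at 15.2 in WT and 15.05 in UUO urine, though its locus summed to 34.5 and 16.6. Gata3 was at 28.5 and 18.99, while Elf5, a principal cell factor, was at 12.6 and 0.657, a difference of -3.03. Elf5 thus stood with Scnn1a and Nr3c2 as the principal cell genes with the greatest differences toward lower values. The potassium channel gene Kcnj1 was listed at 0 in WT and at 2.83 in UUO urine.

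Of 17 other intercalated cell genes, 16 were found and 12 passed the filter. Of these 12, 6 were called higher and 5 lower, beside 25.7% and 36.5% of all annotated genes that passed. The other 1, the carbonic anhydrase gene Car2, was within 2-fold at 49.3 in WT and 93.0 in UUO urine. 4 of the 6 called higher were listed at 0 in WT urine. Among the 9 genes above 0 in both libraries, again a choice made after seeing the data, 2 were called higher and 4 lower. Of the 7842 annotated genes above 0 in both libraries, 631 were called higher and 3434 lower. Among the intercalated cell genes called lower, Atp6v1c2, a C subunit of the pump, was at 21.6 and 0.671, a difference of -3.76. Hmx2, a transcription factor, was at 7.25 and 0.83, Atp6v0d2 at 7.62 and 1.98, and the anion exchanger of base-secreting cells, Slc26a4 (pendrin), at 5.47 and 2.08. Summed over their loci, Atp6v0d2 and Slc26a4 were inside 2-fold, at -0.91 and -0.54. Kit was at 2.43 in WT and listed at 0 in UUO urine.

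Among those called higher, Atp6v0a4, the a4 subunit of the intercalated cell pump, was at 2.34 and 8.18, a difference of 1.46, opposite to Atp6v1b1 of the same pump. Atp6v1g3 and the ammonia transporter gene Rhbg were listed at 0 in WT and at 2.74 and 2.65 in UUO urine. Slc4a1, the anion exchanger of acid-secreting cells, was at 0.976 and 70.3, a difference of 5.17. It is also the band 3 protein of red cells, and the summed FPKM of 7 red-cell genes, Slc4a1 included, was 3166 (WT) and 88752 (UUO). The part of red-cell RNA in the Slc4a1 value was not tested.

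Over members and wider list together, 24 principal cell genes passed the filter, of which 5 were called higher, 6 lower and 13 neither. Of 13 intercalated cell genes 6 were called higher, 6 lower and 1 neither, beside 25.7% higher and 36.5% lower among all annotated genes that passed. The medians over passing genes were -0.20 for principal and 0.90 for intercalated cell genes, the latter being the value of Car2. That is the reverse order of the passing members, at 0.76 and -1.52, where the latter is Atp6v1b1 alone. Without the filter the medians were -0.15 and 0.13. Among genes above 0 in both libraries the medians were -0.50 over 21 principal and -0.57 over 10 intercalated cell genes, and -0.83 over the 7842 annotated genes of that kind.

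The proton pump subunits that most cells use gave a median of 0.12, with 4 of 15 called higher and 2 lower, beside 25.7% and 36.5% of all annotated genes that passed. Without Atp6v0b and Atp6ap2, both listed at 0 in WT urine, the median of the other 13 turned to -0.12, with 2 higher and 2 lower. Over the 7842 annotated genes above 0 in both libraries, 631 were called higher and 3434 lower. Atp6v1a was at 34.1 in WT and 8.36 in UUO urine and Atp6v0d1 at 186 and 57.9, the 2 called lower beside Atp6v1b1. Atp6v1c1 and Atp6v1f were within 2-fold, at 29.2 and 15.6 and at 59.8 and 32.9. Atp6ap1 was at 3.64 and 15.02 and Atp6v0e1 at 13.4 and 30.9.

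**Figure D3:**
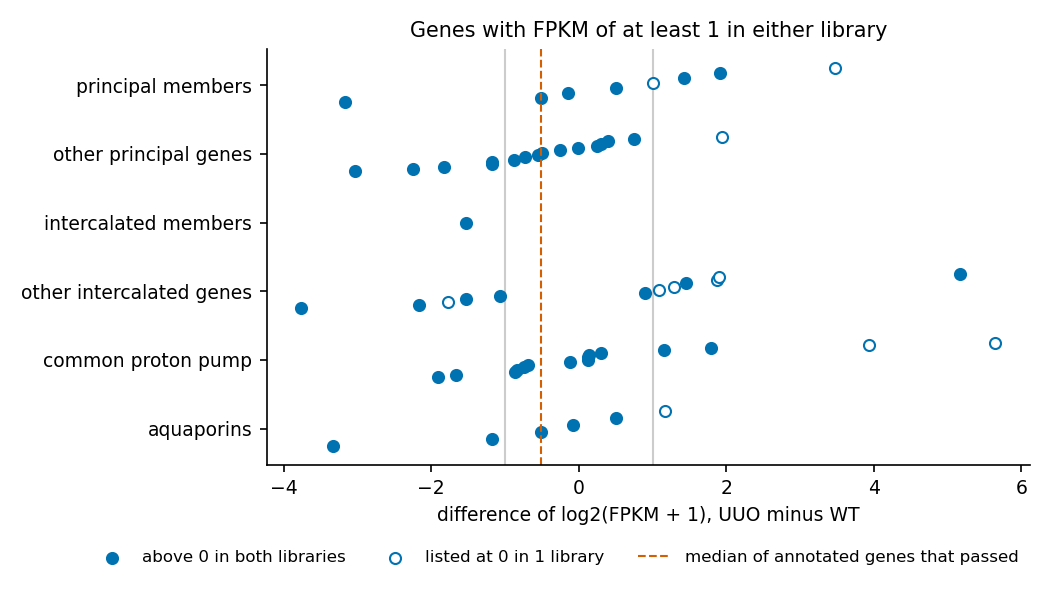
Difference of log2(FPKM + 1), UUO minus WT, for each gene that passed the FPKM 1 filter, 1 row per list, with grey lines at the 2-fold limits and a dashed line at -0.51, the median of the annotated genes that passed. Open points are listed at 0 in 1 library. Scnn1a (-3.17) and Elf5 (-3.03) are the principal cell genes furthest left and Fxyd4 (3.47) is the furthest right, and all intercalated cell genes but Car2 lie outside the 2-fold limits.

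Markers of other cells moved between the libraries too, and their part in the values above was not tested. For urothelium 7 of 9 markers were found, summing to 1174 in WT and 1691 in UUO urine, the highest being Krt7 at 368 and 579. Krt5 was listed at 0 in WT and at 51.8 in UUO urine, though all 25 entries at its locus summed to 317 and 346. The 7 proximal tubule markers summed to 137 and 40.2, led by Lrp2 at 38.7 in WT and Aqp1 at 25.2 in UUO urine. For loop and distal tubule 6 of 7 were found and summed to 68.7 and 85.1, with Kng1 and Pvalb at 0 in both. Umod led in WT urine, at 30.1 and 26.3, and Calb1 in UUO urine, at 12.6 and 35.6. Of the 4 that passed the filter, 2 had a difference above 0 and 2 below, and only Calb1 was called. The 7 leukocyte markers summed to 7.55 and 139, led by Lyz2 at 7.55 in WT and S100a9 at 71.7 in UUO urine, with 6 of them at 0 in WT urine. Red-cell genes were led by Hba-a1 at 1576 in WT and Hbb at 54777 in UUO urine.

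**Figure D4:**
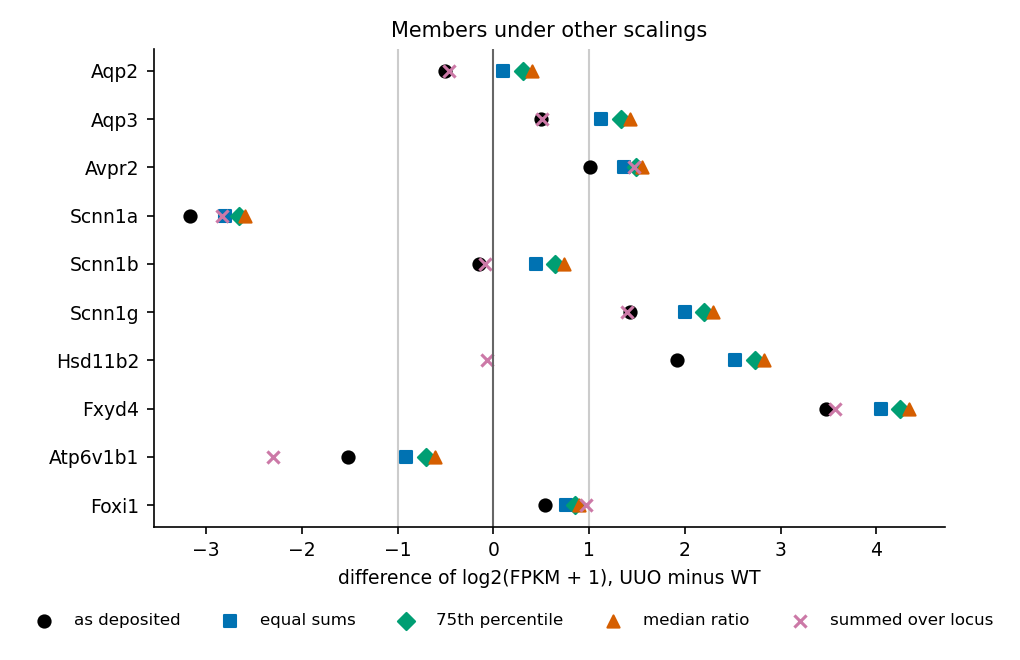
Difference of log2(FPKM + 1), UUO minus WT, of each collecting duct gene as deposited (black circles), under 3 rescalings and with FPKM summed over the locus (crosses), with a dark line at 0 and grey lines at the 2-fold limits. Scnn1a stays left and Fxyd4 right of the 2-fold limits under all of them. For Fxyd4, listed at 0 in WT urine, the rescalings raise UUO values and could only enlarge the difference. Aqp2 and Scnn1b cross 0 under the rescalings, and Hsd11b2 drops to -0.071 when summed over its locus.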

How the data were processed

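Urine RNA was sequenced in 1 WT and 1 UUO library. Per the study's methods, rRNA was removed from kidney RNA before strand-specific library preparation, and urine RNA came from a column kit, whereas the labels name Trizol. Reads were aligned with Bowtie2 2.0.6 and TopHat2 2.0.9, and transcripts assembled with Cufflinks 2.1.1 and Scripture. Submitters' processing notes also name Cuffdiff 2.1.1 and the rn5 build. The deposited values are FPKM, 1 per feature and library, and the total used for scaling is not stated. Columns holding the comparison by the authors (log2 ratio, statistic, p and q) were not used.

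None of the 10 genes was alone at its locus, where reads are divided among overlapping entries. A RefSeq table (GRCr8) matched 16329 of 16484 number-only IDs. The authors' column names were assigned to UUO and WT from the series title and because the study's urine lists print the same values under those headings. Differences of log2(FPKM + 1) were computed in Python 3.11.15 with pandas 2.3.3 and NumPy 2.4.6. Whole fragments were fitted to 186 WT and 3530 UUO values of assembled features alone at loci of 400 to 1200 bp, of which 93.5% and 99.5% came within 0.1 of a whole number, at normalising totals of 2116000 and 2446000. The fit was tested on simulated data. Alternatives were other pseudocounts, limits and scalings, and FPKM summed per locus.

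All 10 genes are named, with, from each wider list, the 4 with the greatest difference each way among genes at FPKM of at least 1 in either library, every principal or intercalated cell gene at FPKM of at least 5, and the highest marker of other cells per library. 1 gene that this rule names is not reported here. Other genes named (Aqp5, Aqp6, Aqp8, Aqp12a, Mip, Krt5, Kng1, Pvalb) were chosen after their values were seen. Members and lists were chosen with earlier results of these data known. Oxgr1, Upk3b, Trp63 and Trpm6 were not found by symbol.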

Additional observations from a re-analysis of the deposited data

Results flagged for a closer look

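Of the database entries that share a locus with the collecting duct genes, which entered the report in locus sums and, for NONRATT027423, by name, 4 not named there were detected in UUO urine at a level above WT urine. At the locus of Aqp3, NONRATG023984 stood at 1.64 FPKM (UUO) and 0.829 FPKM (WT), and NONRATT044613 had 1.637 and 0.828. At the locus of Hsd11b2, NONRATG014637 stood at 1.347 FPKM (UUO) and 1.336 FPKM (WT), and NONRATT027422 had 1.342 and 1.33. The paired entries at each locus had nearly the same values, so they may not be separate signals, and the Hsd11b2 pair was nearly level between libraries. All 4 lie near the detection limit, and whether their reads belong to the overlapping gene was not tested.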

How the results depend on the processing

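No paired analysis was possible because WT and UUO are single libraries. A log2 difference was taken as unchanged when it kept its sign and its side of 1, and a count when it stayed within 1.5 times. By these limits 16 results were recomputed in 101 combinations with an alternative, of which 68 were unchanged. That count is no measure of robustness, because part of it was fixed in advance. Every rescaling raises UUO values, so differences already called higher (Fxyd4, Hsd11b2, Scnn1g and Avpr2) could not change their label under them. Under the rescalings (equal summed FPKM, then median ratio, then 75th percentile) Aqp2 turned to 0.10, 0.41 and 0.31 and Scnn1b to 0.44, 0.74 and 0.65, the median of the principal cell members was 1.24, 1.49 and 1.41, and the number of members lower by 2-fold was 1 each time. The intercalated median turned to 0.14 and 0.075 under the last 2 of these. A pseudocount of 0.1 gave medians of 1.08 (principal) and 0.46 (intercalated, turned), and a pseudocount of 10 left 2 members higher. A 4-fold limit left 1 member higher and 1 lower. Hsd11b2 turned to -0.071 when summed over its locus, where NONRATT027423 held WT signal. The principal median was 1.46 without the sodium channel subunits and Aqp3 and turned to -0.15 over the wider list. The intercalated median turned to 0.13 over the wider list and was -1.52 for the member above 0 in both libraries, chosen after seeing the data. Each rescaling raises UUO values by 1 factor. The cause of the other shifts was not tested. Scnn1a was unchanged under all 6 alternatives tried for it. Fxyd4 was too, but its WT value was 0 at the gene and over its locus. Rescalings that raise UUO values could only enlarge its difference, and a pseudocount of 10 gave 1.006, just over the limit. Depth limits Avpr2, Foxi1 and the UUO value of Scnn1a, each under 3 fragments per effective kilobase, and with it the Scnn1a fold, share and ratio. The WT value of Scnn1g, at 6.34 fragments per effective kilobase, likewise limits its fold, share and ratio.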
